A study of Mus musculus with 16 samples.

Results

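The genes described here are 32 genes of the cell division cycle, found by symbol among the 55487 genes of the deposited count table. Of these, 15 act at the G1/S boundary or in S phase (the cyclin Ccne1, the MCM helicase genes Mcm2 to Mcm7, Cdc45, Gins2, Pcna, Uhrf1, Rrm1, Rrm2, Tyms and Chek1). The other 17 act in G2 and mitosis (Ccna2, Ccnb1, Ccnb2, Cdk1, Plk1, Aurkb, Bub1, Birc5, Kif11, Tpx2, Nusap1, Cenpe, Cenpf, Cdc20, Ube2c, Top2a and the proliferation marker Mki67). RNA came from the hippocampus of the right hemisphere of female mice aged 40 weeks and perfused with PBS. There were 4 genotypes with 4 libraries each. WT mice carried neither change, and CKO mice lacked Ch25h, the gene for cholesterol 25-hydroxylase, which makes the oxysterol 25-hydroxycholesterol. T mice carried the PS19 transgene, a 1N4R form of human tau (MAPT) with the frontotemporal dementia mutation P301S, expressed from the PrP promoter. TCKO mice carried the PS19 transgene and lacked Ch25h. The tau transgene is thus overexpressed from a promoter other than tau's own, and the labels name no cell type to which the Ch25h knockout is restricted. The labels leave it unsaid whether each library came from its own mouse. The spread behind the p-values is that between libraries and may in part be technical.

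As background, a dividing cell commits to S phase through cyclin E with its kinase, unwinds its DNA with the MCM helicase and copies it with polymerases held by the PCNA clamp. It then enters mitosis when cyclin B activates CDK1, and leaves it when the anaphase-promoting complex, with CDC20 and UBE2C, directs the destruction of cyclin B. Most neurons of the adult hippocampus have left the cycle for good, while microglia, oligodendrocyte precursors and neural progenitors keep the ability to divide. Transcripts of mitotic genes are kept low in resting cells by the MuvB-based DREAM complex, which reaches their promoters through a cell cycle genes homology region (CHR), often beside CCAAT boxes bound by NF-Y, whereas S phase genes more often carry E2F sites.

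Library totals ran from 28878646 to 34348284 reads in WT, from 15064309 to 26417541 in CKO, from 26247317 to 32295230 in T and from 24057188 to 31359268 in TCKO. The libraries fitted their labels at both loci. Ch25h had 18 to 40 reads in WT, 133 to 300 in T, 0 to 2 in CKO and 0 to 1 in TCKO. Mapt, to whose mouse gene model human tau reads can map in part, stood at 329 to 360 CPM (counts-per-million, with library totals scaled by TMM) in WT and 363 to 386 in CKO, against 665 to 869 in T and 812 to 1140 in TCKO. Hippocampal neuron markers were present in all 16 libraries, with Prox1 at 24.0 to 87.1 CPM and Slc17a7 at 77.5 to 185 CPM. The libraries WT replicate 1 and T replicate 4 stood apart by their choroid plexus transcripts, whose 15 markers summed to 11670 and 11730 CPM, against at most 1209 CPM in the others. In bulk tissue, more cells of a kind and more RNA per cell cannot be told apart.

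Compared per unit of transcript length, as TPM (transcripts-per-million), the levels of these genes in WT hippocampus differed widely. Pcna, the replication clamp, stood at 75.9 ± 3.59 TPM (SD, n = 4 here and for every group mean), followed at a distance by Rrm1, the large subunit of ribonucleotide reductase, at 10.3 ± 1.05. The mitotic genes were low: Cdk1 had 1.05 ± 0.304 TPM, Top2a 0.241 ± 0.065 and Mki67 0.0543 ± 0.0222. Bub1, a kinase of the spindle checkpoint, had 0 reads in every WT library. In T the order at the top was kept, with Pcna at 70.2 ± 4.01 TPM, while Cdk1 reached 3.82 ± 1.29 TPM and Ube2c, at 0.386 ± 0.223 in WT, reached 2.35 ± 1.39. Of the 32 genes, 31 entered the tests. Bub1 was removed by the filter on low counts (0.362 CPM in at least 4 libraries), and Aurkb passed that filter only with the T libraries counted.

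In the tau mice 13 of the 31 tested genes rose against WT, 9 of them genes of G2 and mitosis, and 0 fell (edgeR quasi-likelihood test, Benjamini-Hochberg adjusted p under 0.05). Over all 18565 genes tested, 13% rose and 11.2% fell. Of the 16 tested genes of G2 and mitosis, 9 rose, 15 had log2 fold changes above 0, and the median was 1.26. Of the 15 genes of G1/S and S phase, 4 rose, 9 were above 0 and the median was 0.10. The median over all 31 was 0.76, against -0.01 over all genes. The libraries of T and WT did not overlap, with T higher, for 14 of the 31, against 13.3% of all genes; these were 12 of the 13 risen genes, with Rrm1 and Kif11. Of the 13 calls, 8 held when any 1 of the 16 libraries was left out: Mcm3, Uhrf1, Ccnb1, Ccnb2, Cdk1, Plk1, Ube2c and Top2a. The other 5 (Mcm2, Rrm2, Birc5, Cenpf and Mki67) each depended on single libraries, and without T replicate 2 the count was 8. Without the libraries WT replicate 1 and T replicate 4, rich in choroid plexus RNA, 12 rose, and Mki67 had an adjusted p of 0.0502. Same-numbered libraries of WT and T shared weak deviations from their group means (correlations 0.12, 0.14 and 0.30), and what the numbers mark is not known. With the number as a block 10 rose, and Mcm2 (adjusted p = 0.0679), Rrm2 (0.0526) and Cenpf (0.133) were then not called.

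**Figure D1:**
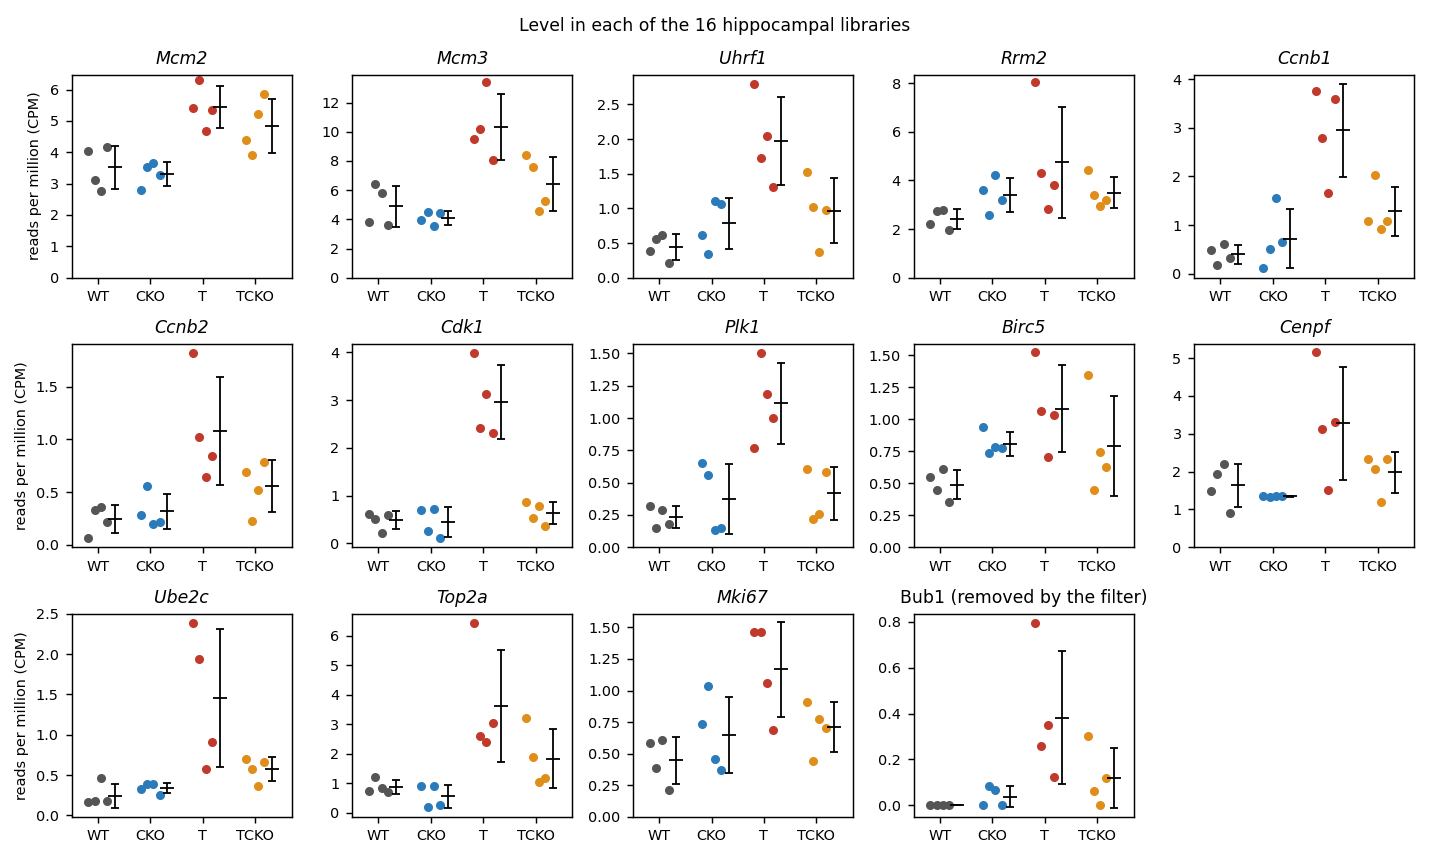
Level in CPM (vertical axis) of the 13 genes that rose in T against WT and of Bub1, in each of the 4 libraries of WT, CKO, T and TCKO. Points are libraries in replicate order and bars are the mean ± SD. The T libraries lie above all WT libraries in every panel except Cenpf, where T replicate 4 (1.5 CPM) lies inside the WT range, and for Cdk1 the TCKO libraries (0.351 to 0.867 CPM) lie below all T libraries.

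Among the tested genes, Ccnb1 had the largest fold change. Ccnb1, which encodes cyclin B1, stood at 0.484, 0.178, 0.612 and 0.318 CPM in WT replicates 1, 2, 4 and 5, and at 3.76, 2.79, 1.66 and 3.59 CPM in T replicates 2, 3, 4 and 5. Every T library thus lay above every WT library, and the log2 fold change was 2.89 ± 0.55 (SE), a 7.39-fold difference (adjusted p = 0.0013). Cdk1, the kinase that cyclin B activates (chr10:69335146-69352938, minus strand, GRCm38), had 0.613, 0.504, 0.216 and 0.600 CPM in WT and 3.98, 2.42, 3.13 and 2.31 CPM in T. The lowest T library was again well above the highest WT library, and the log2 fold change was 2.60 ± 0.47 (adjusted p = 0.000908). Ccnb2, the gene of the second B-type cyclin, went from 0.0646 to 0.360 CPM in WT to 0.640 to 1.81 CPM in T, a log2 fold change of 2.15 ± 0.54 (adjusted p = 0.00813). Plk1, a kinase that helps switch CDK1 on and matures the spindle poles, had 0.148 to 0.323 CPM in WT and 0.764 to 1.5 CPM in T, a log2 fold change of 2.23 ± 0.53 (adjusted p = 0.00565). Cyclin A2, which acts earlier, did not pass: Ccna2 had 0.720 to 0.904 CPM in WT and 0.512 to 1.53 in T, so that the groups overlapped (0.42 ± 0.41, adjusted p = 0.502). Ccna2 shares 12.5% of its exon bases with Exosc9 on the other strand, so part of its reads may not be told apart from those of Exosc9.

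Ube2c, Top2a and Mki67 rose in T as well. Ube2c, the ubiquitin-conjugating enzyme of the anaphase-promoting complex, had 0.161, 0.178, 0.468 and 0.176 CPM in WT and 2.39, 1.94, 0.576 and 0.905 CPM in T. WT replicate 4 was the highest WT library and T replicate 4 the lowest T library, and the groups still did not overlap (log2 fold change 2.55 ± 0.49, adjusted p = 0.0013). Ube2c shares 22.8% of its exon bases with Tnnc2 on the other strand, and no source used here says whether reads were counted by strand; Tnnc2 itself had 0.0792 ± 0.0791 CPM in WT and 0.0659 ± 0.0691 in T. Top2a, the topoisomerase that untangles sister chromosomes, had 0.743, 1.22, 0.828 and 0.706 CPM in WT and 6.43, 2.60, 2.40 and 3.03 CPM in T. T replicate 2 was far above the other T libraries, which were themselves at least at 2.40 CPM (log2 fold change 2.04 ± 0.48, adjusted p = 0.00575). Mki67, whose protein coats mitotic chromosomes and is the common stain for dividing cells, had 0.581, 0.386, 0.612 and 0.212 CPM in WT and 1.47, 1.47, 1.06 and 0.687 CPM in T (log2 fold change 1.37 ± 0.42, adjusted p = 0.0256). The T libraries all lay above WT, with the nearest pair at 0.687 and 0.612 CPM, and the call was lost without WT replicate 2 (adjusted p = 0.0638), WT replicate 5 (0.0798), T replicate 2 (0.0802) or T replicate 3 (0.0655).

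Kinetochore and spindle genes were mixed. Birc5, which encodes survivin of the chromosomal passenger complex, rose from 0.353 to 0.612 CPM in WT to 0.704 to 1.53 CPM in T (log2 fold change 1.14 ± 0.37, adjusted p = 0.0326). That call was lost without WT replicate 1 (0.055), WT replicate 2 (0.0743), WT replicate 5 (0.0956), T replicate 2 (0.126) or T replicate 3 (0.0554). Cenpf, an outer kinetochore protein gene, had 1.49, 1.93, 2.20 and 0.918 CPM in WT and 5.16, 3.12, 1.5 and 3.31 CPM in T, which overlapped through T replicate 4 (log2 fold change 1.00 ± 0.34, adjusted p = 0.0429). It lost its call without any 1 of 8 libraries, namely WT replicates 1, 2 and 5, CKO replicate 2, T replicates 2, 3 and 5, and TCKO replicate 5, with adjusted p up to 0.192. Aurkb, the kinase of the passenger complex, was at 0.0593 to 0.288 CPM in WT and 0.219 to 0.891 in T, just outside the threshold (log2 fold change 1.65 ± 0.59, adjusted p = 0.051). It passed without WT replicate 4 (0.0313), T replicate 5 (0.0281) or TCKO replicate 2 (0.0447). Kif11, the motor that pushes spindle poles apart, had 0.494 to 0.581 CPM in WT and 0.660 to 1.18 in T, without overlap, but did not pass (0.76 ± 0.42, adjusted p = 0.205).

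The spindle assembly factor Tpx2 (0.78 ± 0.37, adjusted p = 0.141) and the microtubule-bundling Nusap1 (0.51 ± 0.26, adjusted p = 0.168) did not pass, nor did the anaphase activator Cdc20 (1.13 ± 0.71, adjusted p = 0.27). Without TCKO replicate 4 the adjusted p of Tpx2 was 0.0398. The kinetochore motor Cenpe was the only tested gene of G2 and mitosis with a fold change below 0 (-0.41 ± 0.26, adjusted p = 0.272). Bub1, outside the tests, had 25, 7, 11 and 4 reads in T against 0 in all WT libraries, 47 reads against fewer than 3 over the group, at least 15.5-fold higher in CPM. CKO had 3 Bub1 reads, a ratio of T to CKO of 11.6 (95% interval from counting error 3.73 to 58.2), and TCKO had 12, a ratio of 3.44 (1.80 to 7.13).

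The replication genes divided into a few that rose and a larger number that did not pass the test. Of the 6 MCM helicase genes, Mcm3 had 3.81, 6.41, 5.80 and 3.6 CPM in WT and 9.49, 10.2, 13.4 and 8.09 CPM in T, without overlap (log2 fold change 1.07 ± 0.24, adjusted p = 0.00364). Mcm2 had 2.77 to 4.17 CPM in WT and 4.67 to 6.30 in T, also without overlap (0.62 ± 0.19, adjusted p = 0.0226), a call lost without WT replicate 2 (0.0644), WT replicate 4 (0.0685), T replicate 2 (0.0512) or T replicate 3 (0.0594). The other 4 helicase genes lay closer to WT: Mcm4 at 0.20 ± 0.18 (adjusted p = 0.464), Mcm5 at -0.22 ± 0.26 (0.597), Mcm6 at -0.02 ± 0.28 (0.97) and Mcm7 at 0.10 ± 0.14 (0.668). Mcm6 had 8.78, 20.6, 20.2 and 11.4 CPM in WT, a spread that took in all T libraries (10.7, 14.1, 19.4 and 15.9 CPM). Cdc45 and Gins2, whose products join the helicase at the fork, had log2 fold changes of -0.26 ± 0.42 (adjusted p = 0.707) and 0.08 ± 0.20 (0.813); Gins2 shares 67.3% of its exon bases with Gse1 on the other strand, so reads of the pair may not be told apart.

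Uhrf1, which hands the DNA methylation pattern to the new strand, had 0.387, 0.564, 0.612 and 0.212 CPM in WT and 2.80, 1.72, 2.05 and 1.31 CPM in T. All T libraries lay above WT, and this was the largest S phase difference (log2 fold change 2.14 ± 0.46, 4.40-fold, adjusted p = 0.00336). Rrm2, the S phase subunit of ribonucleotide reductase, had 1.98 to 2.77 CPM in WT and 8.05, 4.32, 2.81 and 3.81 CPM in T (0.97 ± 0.28, adjusted p = 0.0189). The lowest T library was just above the highest WT library, and the call was lost without WT replicate 1 (0.0508), WT replicate 5 (0.0608) or T replicate 2 (0.106). Its partner Rrm1 was at 23.3 to 26.0 CPM in WT and 26.2 to 30.7 in T, without overlap but short of the threshold (0.20 ± 0.11, adjusted p = 0.217). Pcna, the most abundant of the 32 genes, had 76.9, 74.5, 80.9 and 71.7 CPM in WT and 68.2, 69.6, 77.0 and 68.2 in T (-0.10 ± 0.09, adjusted p = 0.425). Thymidylate synthase, Tyms (0.10 ± 0.17, adjusted p = 0.734), the checkpoint kinase Chek1 (-0.16 ± 0.30, 0.758) and cyclin E1, Ccne1 (-0.42 ± 0.20, 0.148), did not pass.

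The 14 G1/S and S phase genes other than Pcna summed to 118.6 ± 16.6 CPM in WT and 134.2 ± 4.37 in T, and the 2 groups overlapped. The 17 genes of G2 and mitosis summed to 14.8, 11.7, 12.7 and 13.2 CPM in WT and to 41.1, 27.8, 21.5 and 27.6 CPM in T, without overlap.

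**Figure D2:**
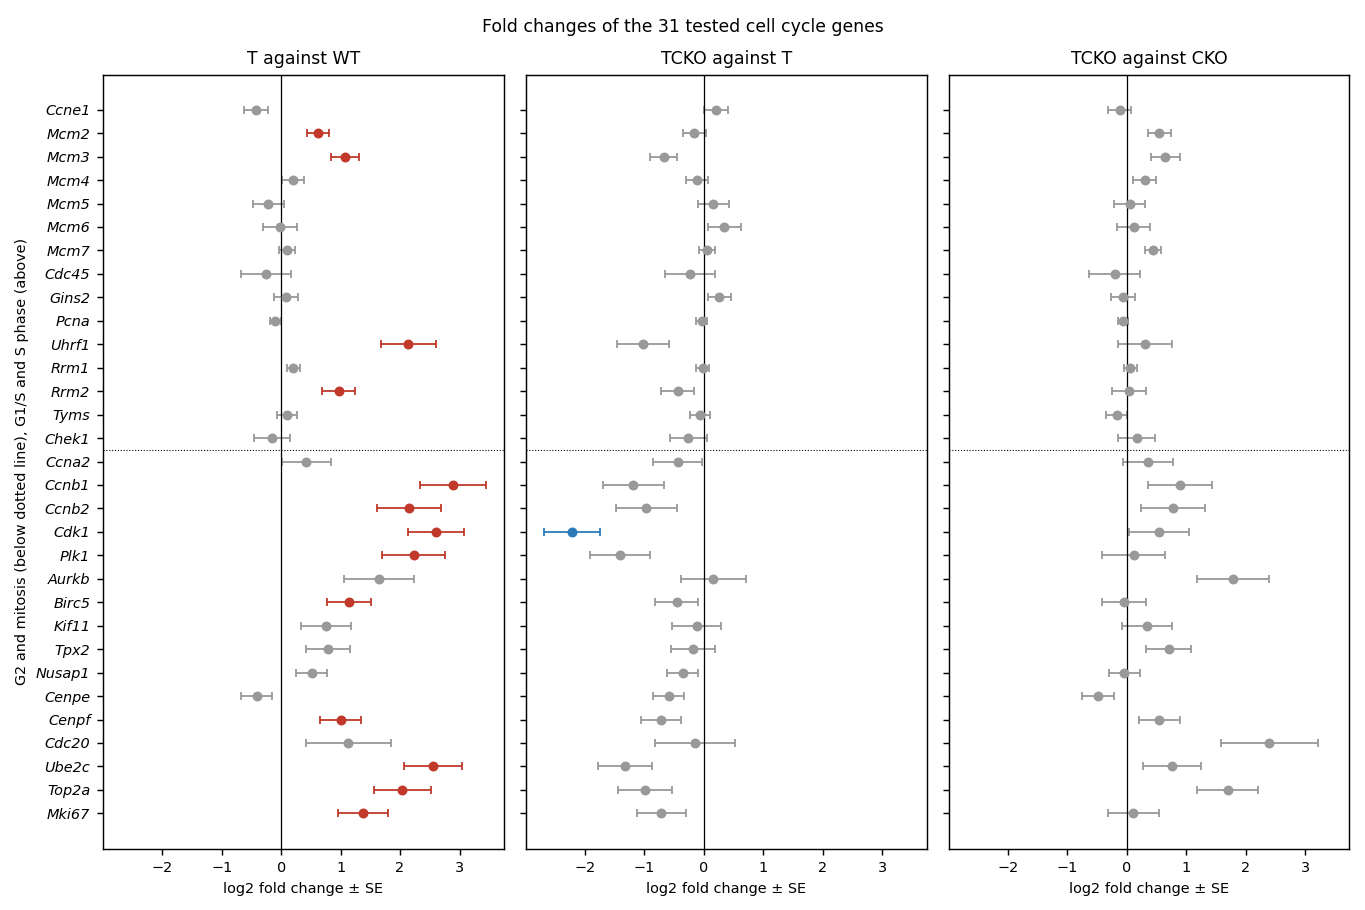
Log2 fold change ± SE (horizontal axis) of the 31 tested genes in T against WT, TCKO against T and TCKO against CKO, with G1/S and S phase genes above the dotted line and G2 and mitosis genes below it. Coloured points passed an adjusted p of 0.05 (red higher, blue lower), grey points did not: 13 are red in T against WT, Cdk1 is blue in TCKO against T, and none is coloured in TCKO against CKO.

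Promoters of several of these genes are shown next, with the motifs named above. RefSeq windows (GRCm38.p6, from 250 bases before to 50 after the start of transcription) were matched by symbol for 27 of the 32 genes, in 29 windows. Gins2, Tpx2, Aurkb, Mcm4 and Ccna2 had no entry. The letters searched, on both strands, were TTTGAA and TTCGAA for the CHR, CCAAT for the CCAAT box, and TTTCCCGC, TTTCGCGC, TTTGGCGC and TTTGCCGC for E2F. A CHR match was found in 10 of 14 windows (71.4%) of G2 and mitosis genes and in 3 of 15 (20%) of G1/S and S phase genes, against 19.2% of all 32851 windows. CCAAT was found in 85.7% and 80% of the same windows, against 37.4% of all, and an E2F match in 7.1% and 33.3%, against 2.3% of all. Among the 14 windows of genes that rose in T, 57.1% held a CHR match, 92.9% a CCAAT box and 21.4% an E2F match. In the 15 windows of the others the shares were 33.3%, 73.3% and 20%. Of the 13 risen genes, 9 act in G2 and mitosis, where CHR matches were common. The part of phase in this contrast was not tested. The others include Bub1, which was outside the tests, had more reads in T than in WT and holds a CHR match. A match is a run of letters and not a measured binding site.

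Below are the bases just before the start for 4 mitotic genes that rose (Cdk1, Ube2c, Ccnb2, Top2a), for Mcm3, which rose, and for Mcm6, which did not, each 5′ to 3′ on the gene's strand with every match in capitals. Matches read from the opposite strand appear as TTCAAA for the CHR, as ATTGG for the CCAAT box and as the reverse complement for E2F. The windows are chr10:69352913-69353162 (minus strand) for Cdk1, chr2:164769679-164769927 (plus) for Ube2c, chr9:70421555-70421804 (minus) for Ccnb2, chr11:99024190-99024439 (minus) for Top2a, chr1:20820313-20820562 (minus) for Mcm3 and chr1:128359706-128359955 (minus) for Mcm6.
Cdk1: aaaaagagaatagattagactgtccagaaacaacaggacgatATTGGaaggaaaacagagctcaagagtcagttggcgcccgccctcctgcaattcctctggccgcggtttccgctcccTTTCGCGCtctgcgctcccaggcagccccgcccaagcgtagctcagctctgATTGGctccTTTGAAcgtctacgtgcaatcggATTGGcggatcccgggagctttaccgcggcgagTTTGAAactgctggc
Ube2c: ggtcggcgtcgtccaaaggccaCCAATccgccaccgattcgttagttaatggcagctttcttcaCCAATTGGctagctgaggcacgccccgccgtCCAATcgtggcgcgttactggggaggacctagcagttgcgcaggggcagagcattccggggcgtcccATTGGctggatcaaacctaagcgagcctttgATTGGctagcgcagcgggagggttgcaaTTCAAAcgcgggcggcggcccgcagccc
Ccnb2: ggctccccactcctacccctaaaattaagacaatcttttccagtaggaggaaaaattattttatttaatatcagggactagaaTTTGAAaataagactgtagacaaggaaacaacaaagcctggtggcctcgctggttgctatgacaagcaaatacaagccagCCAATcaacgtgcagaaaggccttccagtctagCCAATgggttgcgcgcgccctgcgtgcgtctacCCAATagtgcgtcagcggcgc
Top2a: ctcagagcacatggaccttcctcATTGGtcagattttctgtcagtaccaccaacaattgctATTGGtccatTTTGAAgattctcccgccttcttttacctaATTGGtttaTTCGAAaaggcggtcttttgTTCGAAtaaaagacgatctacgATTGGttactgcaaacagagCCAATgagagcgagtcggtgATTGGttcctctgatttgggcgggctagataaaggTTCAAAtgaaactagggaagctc
Mcm3: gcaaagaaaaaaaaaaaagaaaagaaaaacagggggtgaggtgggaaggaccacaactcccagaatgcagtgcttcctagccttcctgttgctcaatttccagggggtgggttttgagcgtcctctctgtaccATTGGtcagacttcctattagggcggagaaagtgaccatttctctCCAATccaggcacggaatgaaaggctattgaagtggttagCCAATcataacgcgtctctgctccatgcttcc
Mcm6: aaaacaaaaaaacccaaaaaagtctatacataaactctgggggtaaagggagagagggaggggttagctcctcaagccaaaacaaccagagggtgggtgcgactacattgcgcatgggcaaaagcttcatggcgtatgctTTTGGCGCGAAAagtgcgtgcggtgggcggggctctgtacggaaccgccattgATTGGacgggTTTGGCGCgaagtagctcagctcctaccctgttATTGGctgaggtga

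Counting from the start with -1 as the first base before it, Cdk1 holds CHR matches at -71 and -15, CCAAT boxes at -208, -80 and -48, and the only E2F match among the mitotic genes, at -131. Ube2c holds 1 CHR match at -29 and 6 CCAAT boxes, a pair of which overlap at -186 and -183. Ccnb2 has its 3 CCAAT boxes at -87, -54 and -21 and CHR matches at -167 and, outside the printed bases, at 5. Top2a holds 4 CHR matches, at -179, -140, -120 and -23, among 6 CCAAT boxes. Of the helicase genes printed, Mcm6 holds 3 E2F matches at -110, -106 and -47, of which the first pair overlap, and CCAAT boxes at -57 and -14. Mcm3 holds CCAAT boxes at -117, -72 and -32 and E2F matches only after the start, at 20 and 39. Ccnb1, the tested gene with the largest fold change and not printed, holds CCAAT boxes at -99 and -67 and no CHR or E2F match. Mcm2, not printed, holds a CHR match at -70, a CCAAT box and no E2F match. The windows of Birc5, which rose, and of Ccne1, Nusap1, Tyms and Chek1, which did not, hold none of these letters.

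**Figure D3:**
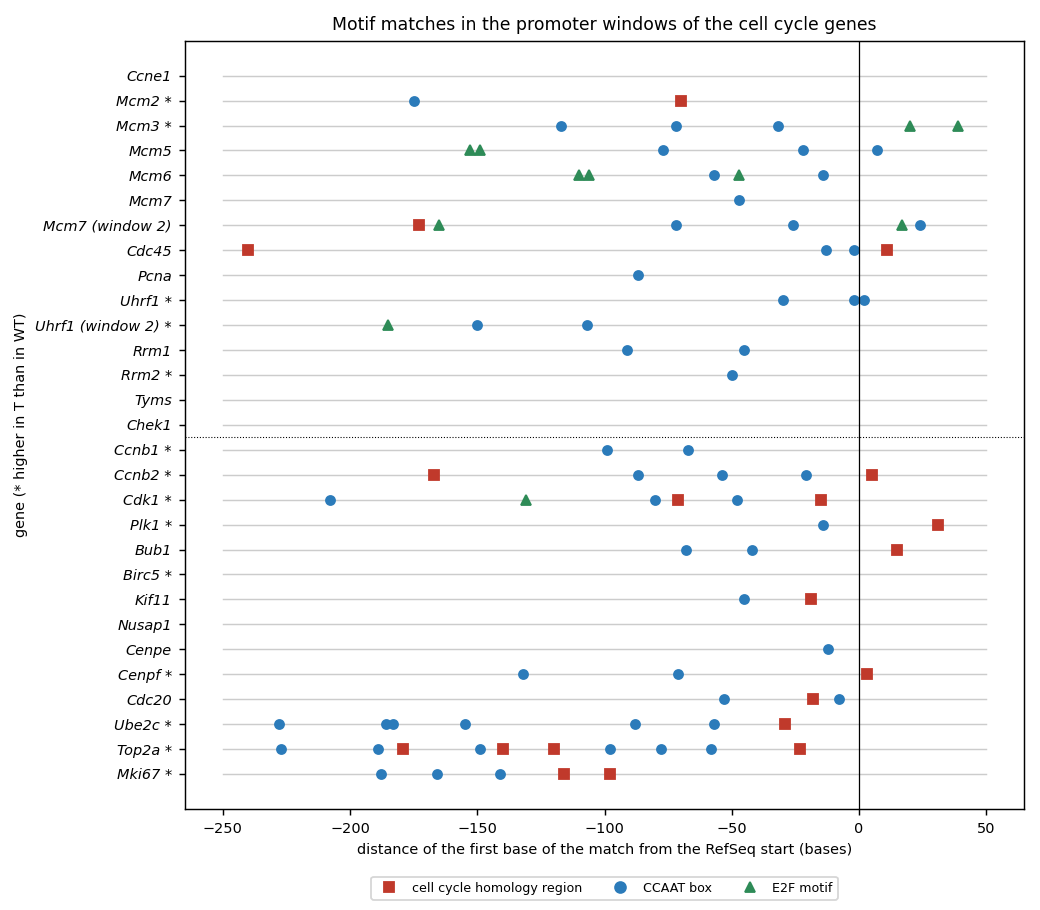
Position of each motif match (horizontal axis, bases from the RefSeq start) in the 29 promoter windows of 27 cell cycle genes. Squares are CHR matches, circles CCAAT boxes and triangles E2F matches, an asterisk marks genes higher in T than in WT, and the dotted line divides G1/S and S phase genes (above) from G2 and mitosis genes (below), where 10 of 14 windows hold a CHR match.

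On the tau background, loss of Ch25h came with a fall of Cdk1 and of no other tested gene in edgeR. In TCKO against T, 1 of 31 genes fell, 0 rose and 6 lay above 0, against 8.05% of all genes lower and 4.81% higher. Cdk1 had 0.867, 0.539, 0.778 and 0.351 CPM in TCKO replicates 2, 3, 4 and 5, against 2.31 to 3.98 CPM in T. Every TCKO library was below every T library, and the log2 fold change was -2.22 ± 0.47 (0.215-fold, adjusted p = 0.00475), with an adjusted p of at most 0.0224 when any 1 library was left out. Plk1 (-1.41 ± 0.50, adjusted p = 0.0752) and Cenpe (-0.59 ± 0.26, adjusted p = 0.156) were the other genes whose TCKO libraries all lay below T, 3 of 31 against 9.65% of all genes. Unadjusted p was under 0.05 for 9 of the 31 genes, close to the share over all genes, 5200 of 18565.

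Several genes lay near the threshold. Ube2c had 0.694, 0.570, 0.371 and 0.663 CPM in TCKO, below 3 of the 4 T libraries (-1.33 ± 0.46, adjusted p = 0.0642), and Mcm3 had 8.41, 7.57, 4.56 and 5.23 CPM (-0.68 ± 0.23, adjusted p = 0.0667). DESeq2 called 3 genes lower, adding Mcm3 (0.0303) and Ube2c (0.0499), and limma voom called 3, adding Mcm3 (0.0422) and Plk1 (0.0348). Over all genes, DESeq2 called 3041 in either direction (1171 of them higher) and limma voom 2495 (904 higher). In edgeR, Ube2c passed without the choroid-rich libraries (0.0328), and Mcm3 passed with all libraries thinned to 15064258 reads (0.0416). The count was also 2 without T replicate 4 or TCKO replicate 2 and 3 without T replicate 5. Among the 16 tested genes of G2 and mitosis the median change was -0.66 on the log2 scale, and 1 lay above 0. Among the 15 of G1/S and S phase the median was -0.06, and 5 lay above 0. Over all genes the median was 0.02. This comparison shares its T libraries with T against WT, so the values of the risen genes are given side by side without a count of signs. Uhrf1 had 1.52, 1.01, 0.371 and 0.975 CPM in TCKO, with log2 fold changes of 2.14 in T against WT and -1.03 ± 0.44 in TCKO against T (adjusted p = 0.14). Ccnb2 had 2.15 and -0.97 ± 0.51 (0.225), Mki67 had 1.37 and -0.72 ± 0.41 (0.272), and Rrm2 had 0.97 and -0.44 ± 0.28 (0.319). Birc5 had 1.14 and -0.46 ± 0.36 (0.433), Cenpf 1.00 and -0.72 ± 0.34 (0.177), and Mcm2 0.62 and -0.16 ± 0.19 (0.611). Ccnb1 had 1.08, 2.03, 0.927 and 1.09 CPM in TCKO (-1.19 ± 0.51, adjusted p = 0.133) and Top2a 3.21, 1.90, 1.04 and 1.17 (-0.99 ± 0.46, adjusted p = 0.176), each overlapping T through 1 library.

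Without the tau transgene, none of the 31 genes passed the test on loss of Ch25h. In CKO against WT 0 rose and 0 fell in edgeR, DESeq2 and limma voom, and 0.0108% of all genes were called in edgeR. None of the 31 had an unadjusted p under 0.05 in edgeR, against 2098 of 18565 genes in all. The median log2 fold change was -0.08 and 15 of 31 lay above 0. Birc5 was the only gene whose groups did not overlap, with 0.733 to 0.942 CPM in CKO and 0.353 to 0.612 in WT (0.72 ± 0.37, adjusted p = 0.491), against 4.88% of all genes with CKO above WT. Cdk1 had 0.696, 0.259, 0.716 and 0.110 CPM in CKO, above the WT range in 2 libraries and below it in 1.

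In mice without Ch25h, 0 of 31 genes were called between TCKO and CKO, where 0.35% of all genes rose and 0.189% fell. The median log2 fold change was 0.30 and 23 of 31 lay above 0, against a median of 0.01 over all genes. It was 0.55 for G2 and mitosis, with 13 of 16 above 0, and 0.06 for G1/S and S phase, with 10 of 15 above 0. Unadjusted p was under 0.05 for 6 of 31, near the share over all genes, 3240 of 18565. DESeq2 called Top2a (adjusted p = 0.0264) and limma voom 0. Over all genes, DESeq2 called 787 in either direction (507 higher) and limma voom 59 (29 higher). Top2a had 0.901, 0.215, 0.911 and 0.257 CPM in CKO and 3.21, 1.90, 1.04 and 1.17 in TCKO, without overlap (log2 fold change 1.70 ± 0.51, 3.26-fold, edgeR adjusted p = 0.112). The libraries of 5 genes (Mcm2, Mcm3, Aurkb, Cdc20 and Top2a) lay above all CKO libraries, against 5.32% of all genes. Aurkb had 0.246, 0.129, 0.130 and 0.110 CPM in CKO and 1.04, 0.475, 0.408 and 0.273 in TCKO (1.79 ± 0.61, adjusted p = 0.153), and its TCKO and T levels lay close together (0.16 ± 0.54, adjusted p = 0.886). Cdc20 had 0 reads in 3 CKO libraries and 0.331 CPM in CKO replicate 5, against 0.390 to 0.630 in TCKO, and passed only when CKO replicate 5 was left out (adjusted p = 0.0266). Of the 13 genes that rose in T against WT, 12 lay above 0 here, with a median of 0.55, and 0 were called; of all 2417 genes that rose in T against WT, 87.5% lay above 0 here.

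The test of whether the tau effect differed with and without Ch25h called 0 of the 31 genes, against 0.695% of all genes higher and 2.45% lower. The median estimate was -0.15 and 10 of 31 lay above 0, against a median of 0.03 over all genes. It was -0.50 for G2 and mitosis, with 2 of 16 above 0, and 0.04 for G1/S and S phase, with 8 of 15 above 0. Unadjusted p was under 0.05 for 7 of 31 genes, against 3486 of 18565 genes in all. DESeq2 called Cdk1 lower (adjusted p = 0.0405) and limma voom 0. Over all genes, DESeq2 called 1263 in either direction (403 higher) and limma voom 544 (113 higher). The estimates nearest the threshold were those of Cdk1 (-2.06 ± 0.68, adjusted p = 0.108), Plk1 (-2.11 ± 0.74, 0.131) and Uhrf1 (-1.82 ± 0.65, 0.133). Without CKO replicate 5 this test called 2 genes, Cdk1 lower (adjusted p = 0.0498) and Cdc20 higher (0.0303). The tau-associated difference in Cdk1 was 6.06-fold with Ch25h, while TCKO against CKO gave 0.54 ± 0.50 on the log2 scale (adjusted p = 0.611).

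Lists of further cell cycle genes, holding none of the 32, were tested in the same way. Of 50 tested genes of mitosis and cytokinesis, 14 rose in T against WT and 1 fell (median 0.64), where 13% of all genes rose and 11.2% fell. In TCKO against T 4 fell and 0 rose in edgeR (median -0.44), a share lower close to the 8.05% of all genes. DESeq2 called 6 lower and limma voom 7, with 0 higher in each. Over all genes DESeq2 called 3041 (1171 higher) and limma voom 2495 (904 higher). The TCKO libraries all lay below T for 7 of the 50, against 9.65% of all genes. Pbk, a mitotic kinase gene, had log2 fold changes of 2.58 ± 0.39 in T against WT (adjusted p = 0.000146) and -1.4 ± 0.36 in TCKO against T (0.0187), the latter a call lost without T replicate 2 or TCKO replicate 5. Ckap2, a spindle-associated protein gene, had 2.06 ± 0.52 in T against WT (adjusted p = 0.00902) and -2.35 ± 0.53 in TCKO against T (0.00813). The kinetochore gene Spc25 had 2.09 ± 0.45 (0.00291) and -1.62 ± 0.44 (0.0219), the latter lost without T replicate 2, TCKO replicate 3 or TCKO replicate 5. Ckap2l rose (1.53 ± 0.31, 0.00194), and its fall in TCKO (-0.98 ± 0.30, 0.0421) was lost in 12 of the 16 fits that left out 1 library. The gene that fell in T was Tubb5, a tubulin gene that neurons also use (-0.47 ± 0.10, adjusted p = 0.00242).

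Of 41 tested genes of DNA replication, 8 rose and 2 fell in T against WT (median 0.16). Over all genes, 13% rose and 11.2% fell. In TCKO against T 0 were called, against 4.81% of all genes higher and 8.05% lower. There 8 had an unadjusted p under 0.05, against 5200 of 18565 genes in all. DESeq2 called 1 higher and 2 lower, with 3041 called over all genes, and limma voom called 0. Cdt1, which loads the MCM helicase onto DNA, rose by 1.80 ± 0.43 (adjusted p = 0.00644). Cdc7, the kinase that fires the loaded helicase, went the other way (-0.75 ± 0.19, adjusted p = 0.00857). The histone chaperone gene Chaf1b rose (1.4 ± 0.42, 0.0217), a call lost without WT replicates 1, 2 or 4 or T replicates 2 or 4, and with the replicate block (0.084). Pole2, a subunit gene of the leading-strand polymerase, was nearest the threshold in TCKO against T after Cdc7, at -1.81 ± 0.60 (adjusted p = 0.0564).

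Brakes on the cycle were among the genes that rose. Of 42 tested genes for G1 cyclins, kinases, E2F and Rb factors and inhibitors, 10 rose and 2 fell in T against WT (13% and 11.2% of all genes). In TCKO against T 1 rose and 3 fell in edgeR, no larger a share than the 4.81% and 8.05% of all genes. DESeq2 called 1 higher and 5 lower there, and limma voom 1 higher and 6 lower. Over all genes DESeq2 called 3041 (1171 higher) and limma voom 2495 (904 higher). Cdkn1a, which encodes the CDK inhibitor p21, rose by 2.21 ± 0.31 (adjusted p = 8.79e-05), was lower in TCKO than in T (-1.55 ± 0.31, adjusted p = 0.0028), and was the only gene of the 4 lists that edgeR called in the interaction (-1.85 ± 0.43, adjusted p = 0.0279). That call was lost without CKO replicate 2, CKO replicate 5, T replicate 2 or T replicate 3. In the interaction limma voom called 0 genes of the 4 lists, and DESeq2 called 1 replication gene lower, 1 mitosis gene higher and 2 lower, and 2 genes of the G1 list lower. Over all genes limma voom called 544 in the interaction (113 higher) and DESeq2 1263 (403 higher). The cyclin gene Ccnd3 (1.10 ± 0.22, adjusted p = 0.0018), the transcription factor gene Myc (1.35 ± 0.27, 0.00172) and the S phase kinase gene Cdk2 (1.02 ± 0.24, 0.00618) rose in T. Myc (-0.90 ± 0.26, 0.0327) and Cdk2 (-0.90 ± 0.24, 0.0223) fell in TCKO against T, calls that were lost without any 1 of 5 and of 4 libraries.

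Of 28 tested genes of the p53 and DNA damage response, 9 rose and 0 fell in T against WT. Over all genes, 13% rose and 11.2% fell. In TCKO against T 6 of these 28 fell, against 8.05% of all genes. The p53 target Phlda3 rose by 2.47 ± 0.33 (adjusted p = 5e-05), and the growth arrest genes Gadd45a by 1.74 ± 0.29 (0.000357) and Gadd45g by 1.29 ± 0.17 (4.64e-05). In TCKO against T, Gadd45g (-0.69 ± 0.17, 0.0127) kept its call with any 1 library left out, while Gadd45a (-1.04 ± 0.28, 0.0217) lost its call without T replicate 2, TCKO replicate 4 or TCKO replicate 5. In CKO against WT and in TCKO against CKO none of the 4 lists had a called gene in edgeR. DESeq2 called 1 mitosis gene higher and 1 lower, and 3 p53 genes higher, in TCKO against CKO, and limma voom called 0. Over all genes DESeq2 called 787 there (507 higher) and limma voom 59 (29 higher). These lists held unadjusted p under 0.05 for 5, 2, 3 and 0 genes of replication, mitosis, G1 and p53 in CKO against WT. In TCKO against CKO the numbers were 7, 7, 4 and 6. Over all 18565 genes, 2098 had such a p in CKO against WT and 3240 in TCKO against CKO.

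Markers of several cell types able to divide also differed between T and WT. The 20 microglia markers summed to 865.2 to 1212 CPM in WT, 931.3 to 1052 in CKO, 4486 to 5895 in T and 1165 to 2207 in TCKO, with none at 0 in any group. Of these, 19 of 20 rose in T against WT, against 13% of all genes, and 17 fell in TCKO against T, against 8.05%. C1qa, a complement gene of microglia, rose by 3.71 ± 0.20 in T against WT. The 16 T cell markers summed to 6.08 to 8.45 CPM in WT, 4.96 to 9.37 in CKO, 40.6 to 86.2 in T and 5.11 to 14.5 in TCKO, and 13 of 14 tested rose in T. The 17 markers of oligodendrocyte precursors summed to 514.1 to 714.6 CPM in WT, 542.5 to 600.1 in CKO, 729.7 to 1121 in T and 695.1 to 847.1 in TCKO. Of these 17, 7 rose in T against WT and 3 fell in TCKO against T, where the sums overlapped. Markers of neural stem cells, progenitors and newborn neurons went the other way in sum, with 1131 to 1568 CPM in WT, 1190 to 1325 in CKO, 797.1 to 1141 in T and 1114 to 1446 in TCKO. Most of this sum came from Tubb3 (mean 540.7 CPM in WT and 369.9 in T) and Stmn2 (478.6 and 333.5). Of the 18 tested genes of this list 3 rose and 3 fell in T against WT. Those that rose include the intermediate filament gene Nes (1.23 ± 0.33, adjusted p = 0.0117) and Hopx (0.63 ± 0.21, 0.04). Those that fell were Tubb3 (-0.55 ± 0.13, 0.00757), Neurod1 (-0.93 ± 0.24, adjusted p = 0.00982) and Stmn2 (-0.52 ± 0.15, 0.021). Both shares were near the 13% and 11.2% of all genes. The sums of astrocyte markers were 6146 to 6867 CPM in WT, 5243 to 5886 in CKO, 12250 to 15830 in T and 5970 to 9165 in TCKO, and those of border macrophages, monocytes and neutrophils 11.5 to 14.7, 4.88 to 11.4, 20.2 to 56.9 and 6.98 to 9.80. The 16 markers of neurons and hippocampal subfields summed to 9833 to 11440 CPM in WT, 11740 to 12650 in CKO, 5749 to 9416 in T and 9633 to 13220 in TCKO. The part of these cell types in the cell cycle differences was not tested.

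**Figure D4:**
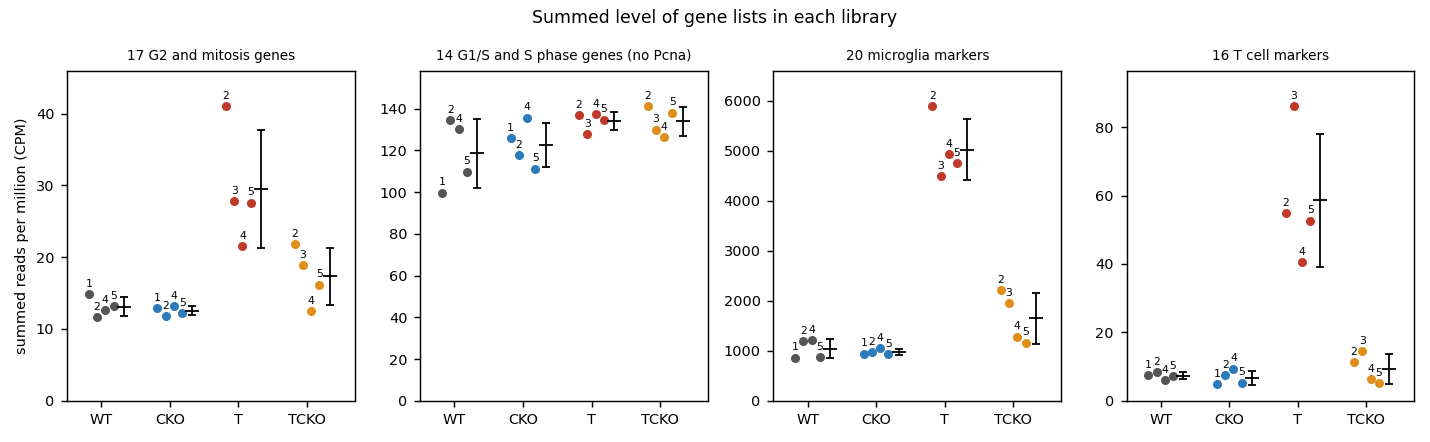
Summed level in CPM (vertical axis) of the 17 G2 and mitosis genes, the 14 G1/S and S phase genes without Pcna, 20 microglia markers and 16 T cell markers, in each library (points, with replicate numbers), with the mean ± SD of each genotype. The microglia and T cell sums are highest in the 4 T libraries. The G2 and mitosis sum of T replicate 4 (21.5 CPM) lies above WT and CKO but below TCKO replicate 2 (21.82 CPM). The S phase sum overlaps between WT and T.

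T replicate 2 was the highest T library for 18 of the 32 genes and TCKO replicate 2 the highest TCKO library for 16. The same count was not made over all genes, so these numbers have no share to be read against. Their microglia sums, 5895 and 2207 CPM, were the highest of their groups. T replicate 2 also had the highest oligodendrocyte precursor sum of T (1121 CPM) and the lowest neuron sum (5749 CPM), while TCKO replicate 2 had the lowest precursor sum of TCKO (695.1 CPM). T replicate 3, with 27.81 CPM for G2 and mitosis, had the lowest microglia sum of T (4486 CPM). In WT the G2 and mitosis sum was highest in replicate 1 (14.82 CPM), which had the lowest microglia sum of its group (865.2 CPM). The 17 genes of G2 and mitosis summed to 21.82, 18.95, 12.46 and 16.19 CPM in TCKO replicates 2, 3, 4 and 5 and to 11.8 to 13.2 CPM in CKO. TCKO replicate 4 lay inside the range of CKO and the other 3 TCKO libraries above it.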

How the data were processed

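Hippocampal RNA was measured in 16 libraries; per the labels' protocols, cDNA was primed with oligo-dT (SMARTer Ultra Low kit). The submitters' processing notes name bcl2fastq, STAR 2.5.1a, Subread, featureCounts 1.4.6-p5 and GRCm38, without roles. The authors deposited estimated counts (expected counts that need not be whole; 74.53% of those above 0 were whole) and TPM per gene, per the file headers; no source used here names the quantifier or the strand setting. The count table held 55774 lines for 55487 genes, and each gene was kept once.

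Rounded counts of all 16 libraries went into edgeR 4.0.16 (R 4.3.3) (TMM scaling, filterByExpr, quasi-likelihood F-tests on genotype means, Benjamini-Hochberg adjustment over 18565 genes, threshold 0.05) in 5 comparisons. The SE is the log2 fold change divided by the root of F. DESeq2 1.42.0, limma 3.58.1 (voom) and other filters, scalings and left-out libraries were alternatives, and the edgeR script was tested on simulated data. Cell cycle genes, pathway lists and marker lists were chosen with earlier results of these data known, and support nothing by their choice. All 32 genes were named, with Ch25h, Mapt and, per list, up to 3 genes of smallest p in T against WT and in TCKO against T (marker lists mostly by sums); 1 gene that this rule names is not reported here. Ratios for Bub1 have exact intervals and a floor of 3 counts over the group, which cover counting error only.

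Same-numbered libraries shared deviations from their group means in WT and T (correlations 0.12, 0.14 and 0.30 for replicates 2, 4 and 5), which is a hint from the data, as the labels do not say what the numbers mark. In the other pairs of groups compared, at least 1 correlation was 0.1 or below. Gene coordinates are from GENCODE (GRCm38), promoter windows from RefSeq (GRCm38.p6).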

Additional observations from a re-analysis of the deposited data

Results flagged for a closer look

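Among 128 sets of 4 libraries (each of the 32 genes in each genotype), 7 had 1 library so far from the other 3 that its gap to the nearest, as a share of the whole range, passed Dixon's limit at the 95% level; chance passes about 5% of such sets. Top2a stood at 6.43 CPM in T replicate 2, against 2.40 to 3.03 CPM in the other T libraries. Ube2c stood at 0.468 CPM in WT replicate 4, against 0.161 to 0.178 CPM, and so lay nearest to T. Cdc20 stood at 0.331 CPM in CKO replicate 5, where the other CKO libraries had 0 reads. Ccnb1 stood at 2.03 CPM in TCKO replicate 3, against 0.927 to 1.09 CPM, and inside the range of T. Ccna2 stood at 1.43 CPM in TCKO replicate 2, against 0.546 to 0.697 CPM. Aurkb stood at 0.246 CPM in CKO replicate 1, against 0.110 to 0.130 CPM. Pcna stood at 77.0 CPM in T replicate 4, against 68.2 to 69.6 CPM, and inside the range of WT.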

How the results depend on the processing

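The count of genes higher in T against WT was 13 in DESeq2, 12 in limma voom, 10 without the filter and 7 when a fold above 1.5 was required. Over all genes, 2741, 2552, 2375 and 968 were higher in these settings, against 2417 in the main fit. Without the filter Mcm2, Birc5, Cenpf and Mki67 were not called, and Bub1 was (6.44 ± 1.4, adjusted p = 0.00342). Leaving out 1 library gave 8 to 14, and 8 came without T replicate 2, where 1772 of all genes were higher. With libraries thinned to one total it was 10 (2372 over all genes), since Birc5 and Cenpf did not pass and Ube2c fell under the filter. For genes lower in TCKO against T the count was 1 in edgeR, 3 in DESeq2, 3 in limma voom, 2 without the choroid-rich libraries, 2 after thinning and 1 to 3 with 1 library left out. Over all genes, 1591 were called in either direction without the choroid-rich libraries and 2067 after thinning. For genes higher in TCKO against CKO it was 0 in edgeR, 1 in DESeq2 and 0 to 1 with 1 library left out. In the interaction, genes lower numbered 1 in DESeq2 and 0 to 1 with 1 library left out, and genes higher 0 to 1. No named fold change with a call changed sign in any alternative, and the cause of the differences between settings was not tested. With the replicate block, 10 genes were higher in T against WT and 1 (Cdk1) lower in TCKO against T, and 0 were called in the other 3 comparisons; beyond Mcm2, Rrm2 and Cenpf it changed no call among the 31. Depth limits the mitotic genes most: Bub1 had 62 reads in all libraries together and Aurkb 149.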
